A study of Arabidopsis thaliana with 21 samples.

Results

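Calmodulin-like (CML) genes were followed through the cold and the first day of deacclimation in rosettes of Arabidopsis thaliana Col-0. They were chosen by gene symbol: every probe set that the platform table gives to a single gene and whose symbol is CIPK, CBL, CPK, CML or CAM followed by a digit. The rule found 6 genes, each with 1 probe set, of the 16542 genes that single-gene probe sets name on the array: CML23 (AT1G66400), CML37 (AT5G42380), CML38 (AT1G76650), CML41 (AT3G50770), CML42 (AT4G20780) and CML43 (AT5G44460). No single-gene probe set carried a CIPK, CBL, CPK or CAM symbol, so the genes described are calcium sensors only and include no calcium-dependent kinase. The RefSeq gene table lists 76 Arabidopsis genes with such a symbol, and the other 70 of them were not measured under the rule.

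Calcium is a second messenger in plant cells. Cold, touch, wounding and microbial molecules each open channels that let calcium into the cytosol, and the rise is read by proteins with EF-hand motifs. Calmodulins and calmodulin-like proteins have no catalytic part of their own and act by binding other proteins once they hold calcium. Calcineurin B-like proteins (CBL) work through CIPK kinases, and CPK kinases carry sensor and kinase in a single chain. Transcripts of many CML genes are themselves known to respond quickly to touch, wounding, pathogens and cold.

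The study asked how transcripts change when cold acclimated plants are brought back to warmth. Non-acclimated (NA) plants were 4 weeks old and grown in a greenhouse held at 20 °C in the light and 18 °C in the dark, with a light level of no less than 200 µmol m-2 s-1. Cold acclimated plants were of the same kind and had spent 3 days at 4 °C and 90 µmol m-2 s-1. Deacclimated (DEA) plants were cold acclimated plants returned for 2, 4, 6, 12 or 24 h to the temperature and light of NA plants, so that warmth and brighter light came together and cannot be told apart. Each of the 7 groups had 3 independent biological replicates, each a pool of 10 whole rosettes, and 21 arrays were made in all. All plants had 8 h days for 3 weeks and 16 h days afterwards, in the cold too. By the study's account samples were taken in the light period only, but the hour is not stated. GI, a clock gene whose transcript cycles over the day, stood 1.06 below its cold acclimated level at 2 h DEA (log2 change −1.06, limma, adjusted p = 0.00113). Its changes after 4, 6 and 12 h were −0.07, 0.50 and 0.22. At 24 h the change was −0.71 (limma, adjusted p = 0.00986) and in NA plants −0.89 (limma, adjusted p = 0.00243). The paper states that cold makes the cycles of clock components smaller, so the cold acclimated level of GI is no plain mark of the hour. GI was lowest at 2 h, where no CML gene was called. It was also low at 24 h and in NA plants, where CML genes were called higher, but not at 12 h, where CML41 was called. The part of GI in those results was not tested.

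Transcript levels are given as log2 values of a probe set. A call required a change of more than 2-fold, 1 on the log2 scale, together with an adjusted p below 0.05, in a limma fit of 31329 probe sets on all 21 arrays. A whole rosette holds many cell types, and fewer cells of a type and less RNA per cell cannot be told apart in it. The mean over 5 measured green leaf genes lay between 11.05 and 11.78 on each array, while 2 root hair genes, EXPA7 and EXPA18, averaged 3.92 to 4.75 and the pollen gene VGD1 lay at 2.95 to 3.88. Among the green leaf genes, LHCB4.3 alone was called higher than in cold acclimated plants at 12 h, 24 h and in NA plants. It averaged 6.7 in cold acclimated plants and 8.8, 8.6 and 8.4 in those groups. Of 8 measured cold-regulated genes, such as COR15A and KIN1, 7 were called lower in NA plants compared with cold acclimated plants, and 1 was called higher. The median log2 value of an array ran from 8.11 to 8.43, highest on 2 h DEA replicate 1. At 2 h DEA 64.3% of all called probe sets were higher than in cold acclimated plants. The share was 44.3% after centring each array on its median and 50.5% after quantile normalization. Over the whole deposited table, before any probe sets were set apart, it was 52.4%. On 24 h DEA replicate 2, 654 probe sets lay more than 2-fold above both other arrays of the group, against 49 to 384 on the other 20 arrays. Results on the CML genes that rest on this array are given with and without it.

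**Figure D1:**
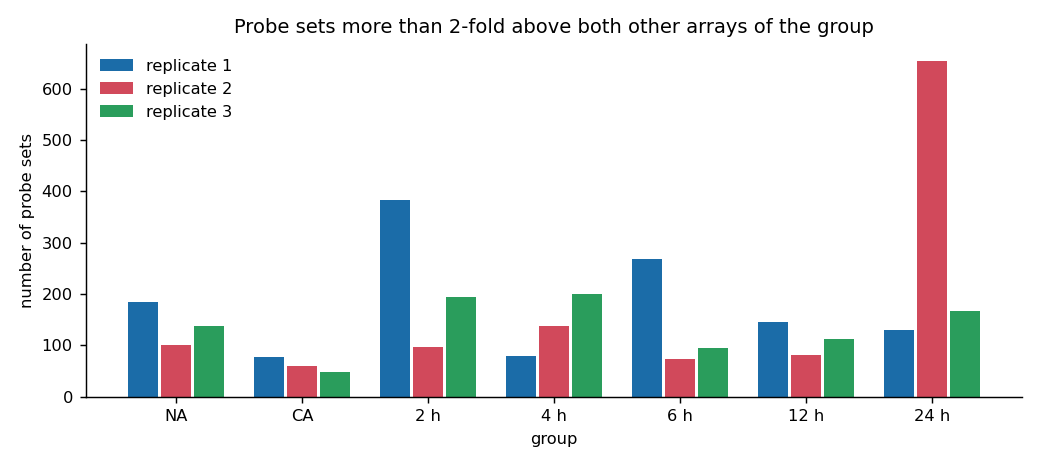
Number of analysed probe sets (y axis) more than 2-fold above both other arrays of the same group, for each array (bars, coloured by replicate) of non-acclimated (NA), cold acclimated (CA) and deacclimated (2 h to 24 h) plants. The bar of 24 h DEA replicate 2 stands at 654 and that of 2 h DEA replicate 1 at 384.

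In NA plants 4 of the 6 CML transcripts stood higher than in cold acclimated plants, CML23, CML37, CML38 and CML41, and none stood lower. During deacclimation none of the 6 was called at 2, 4 or 6 h. CML41 alone was called at 12 h, and at 24 h the same 4 genes as in NA plants were called higher than in cold acclimated plants. CML42 and CML43 passed in no comparison. At an unadjusted p under 0.05 the limma fit had 1 gene at 2 h and 1 at 4 h, CML38 both times, and 0 at 6 h. For the rise in NA plants the background was 4.26% of all probe sets called higher, for 24 h DEA 4.15% and for 12 h DEA 4.41%. At 2, 4 and 6 h it was 2.88%, 3.22% and 4.17%, and none of the 6 genes was called lower in any of these comparisons, against 1.6%, 2.6%, 3.56%, 4.76% and 4.37% of all probe sets at 2, 4, 6, 12 and 24 h and 3.64% in NA plants. The comparisons all share the 3 cold acclimated arrays. The median log2 change of the 6 genes against cold acclimated plants lay between 0.33 and 0.51 from 2 h to 12 h, and reached 1.84 at 24 h and 2.04 in NA plants, beside medians between 0.00 and 0.06 over all probe sets. Without 24 h DEA replicate 2 the median of the 6 genes at 24 h was 0.79.

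**Figure D2:**
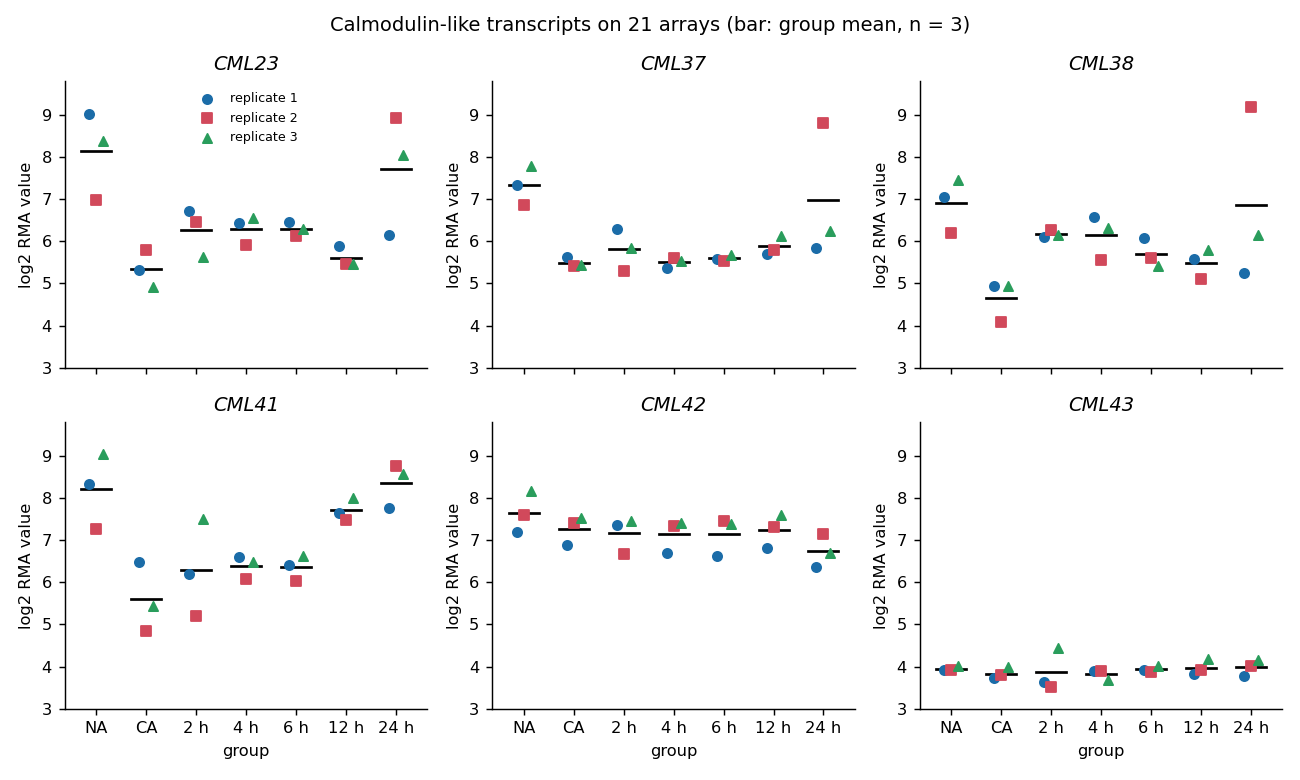
Log2 RMA value (y axis) of each calmodulin-like transcript on the 21 arrays, by group (x axis: NA, non-acclimated; CA, cold acclimated; 2 h to 24 h, time of deacclimation). Points are single arrays, coloured by replicate, and bars are group means of 3. CML23, CML37, CML38 and CML41 stand lower in cold acclimated than in NA plants with no overlap, while CML42 and CML43 overlap.

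CML41 encodes a CML protein at the plasmodesmata, where it is known to take part in callose-dependent closure during defence. Its log2 values were 8.34, 7.26 and 9.04 in NA plants and 6.49, 4.85 and 5.44 in cold acclimated plants. After 2 h DEA they were 6.19, 5.20 and 7.51, after 4 h 6.59, 6.07 and 6.49, and after 6 h 6.42, 6.03 and 6.62, each time overlapping with cold acclimated plants. The 12 h arrays read 7.64, 7.47 and 8.00, above every cold acclimated array and every 6 h array, and the 24 h arrays 7.76, 8.77 and 8.57. The rise over cold acclimated plants came to 2.11 ± 0.52 (log2, SE, n = 3 per group) at 12 h, a 4.33-fold difference (limma, adjusted p = 0.00473). It was 2.77 ± 0.52 or 6.83-fold at 24 h (adjusted p = 0.000613) and 2.62 ± 0.52 or 6.15-fold in NA plants (adjusted p = 0.00118). At 2, 4 and 6 h the differences were 0.71, 0.79 and 0.76, with adjusted p between 0.32 and 0.391. The step from 6 h to 12 h was 1.35 and its arrays did not overlap, but it was not called (limma, adjusted p = 0.244), in a comparison with 0.517% of probe sets called in either direction. Each of the 3 calls of CML41 stood without any 1 of the 21 arrays.

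CML23 is the close relative of CML24, also known as TCH2, a touch-induced gene, and the pair is known for roles in nitric oxide level and flowering time. Its log2 values were 9.02, 6.99 and 8.38 in NA plants and 5.31, 5.78 and 4.91 in cold acclimated plants, with no overlap. After 2 h DEA they were 6.71, 6.46 and 5.63, after 4 h 6.44, 5.90 and 6.54, after 6 h 6.46, 6.12 and 6.29, and after 12 h 5.89, 5.47 and 5.46. At 4 h and 6 h every array lay above every cold acclimated array and at 12 h all lay below the 6 h arrays and overlapped with the cold acclimated ones again. At 24 h the values were 6.14, 8.93 and 8.04, all above the 12 h arrays but 2.79 apart among themselves. CML23 was higher than in cold acclimated plants by 2.37 ± 0.56 (log2, SE) or 5.16-fold at 24 h (limma, adjusted p = 0.00352) and by 2.79 ± 0.56 or 6.94-fold in NA plants (adjusted p = 0.00118). The differences at 2, 4 and 6 h were 0.93, 0.96 and 0.96 (adjusted p 0.276, 0.254 and 0.233) and that at 12 h 0.27 (adjusted p = 0.787).

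Between 12 h and 24 h CML23 rose by 2.099 ± 0.557 or 4.28-fold (limma, adjusted p = 0.0272), 1 of 6 genes called where 2.61% of all probe sets were called in either direction. It was the only limma call between successive times, the background being 0.163% from 2 h to 4 h and 0.0479% from 4 h to 6 h. This call was lost without any 1 of the 3 arrays at 12 h, and without replicate 2 or replicate 3 at 24 h, with changes between 1.49 and 2.24 and adjusted p between 0.0521 and 0.143. It was lost too in a fit of these 2 groups alone (adjusted p = 0.166). Without 24 h DEA replicate 2 the rise of CML23 over cold acclimated plants at 24 h was 1.76 and was still called (adjusted p = 0.0238).

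CML38 and CML37 are close relatives. CML38 is known as a wound-induced and hypoxia-induced gene whose protein gathers in stress granules. Its log2 values were 7.04, 6.20 and 7.45 in NA plants and 4.93, 4.096 and 4.94 in cold acclimated plants. After 2 h DEA they were 6.10, 6.28 and 6.14, after 4 h 6.58, 5.56 and 6.31, after 6 h 6.08, 5.61 and 5.41, and after 12 h 5.58, 5.11 and 5.78. At 24 h the 3 arrays read 5.24, 9.18 and 6.14. In all 5 DEA groups every array lay above every cold acclimated array, by 1.16 at 2 h and by 0.16 at 12 h. CML38 was the only 1 of the 6 genes without overlap at 2 h, where 20.2% of all probe sets had every array higher.

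The excess of CML38 over cold acclimated plants was 1.52 ± 0.66 (log2, SE) at 2 h and then 1.49, 1.05 and 0.84 at 4, 6 and 12 h, and none of these was called (limma, adjusted p 0.126, 0.124, 0.277 and 0.398). At 24 h the difference was 2.198 ± 0.662 or 4.59-fold (adjusted p = 0.0174) and in NA plants 2.24 ± 0.66 or 4.72-fold (adjusted p = 0.0172). The call at 24 h turned on 24 h DEA replicate 2. Without that array the rise at 24 h was 1.03 (adjusted p = 0.0594), not called, and the rises at 2, 4 and 6 h, unchanged in size, were called (adjusted p 0.00579, 0.00509 and 0.0329). They were also called in fits of the 2 groups alone (adjusted p 0.0127, 0.0246 and 0.038), and the rise at 24 h was not (adjusted p = 0.15). Without cold acclimated replicate 2, the lowest of its group, the calls at 24 h (1.92, adjusted p = 0.0738) and in NA plants (1.96, adjusted p = 0.0717) were lost as well. Without NA replicate 3 the call in NA plants was lost (1.96, adjusted p = 0.0715), and without 24 h DEA replicate 1 CML38 was called from 12 h to 24 h (2.17, adjusted p = 0.0399, against 1.36 and 0.268 with all arrays).

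CML37 is known as a wound-induced and herbivory-induced gene with a role in jasmonate-dependent defence. Its log2 values were 7.34, 6.85 and 7.80 in NA plants and 5.63, 5.40 and 5.43 in cold acclimated plants. They stayed between 5.30 and 6.29 on all 12 arrays from 2 h to 12 h DEA, every one of which lay below every NA array. At 24 h the values were 5.85, 8.81 and 6.24, of which replicates 1 and 3 lay below every NA array and replicate 2 above them all. NA plants exceeded cold acclimated plants in CML37 by 1.84 ± 0.50 (log2, SE) or 3.58-fold (limma, adjusted p = 0.011), and without NA replicate 3 the call was lost (1.61, adjusted p = 0.0527). At 24 h it was higher than in cold acclimated plants by 1.48 ± 0.50 or 2.78-fold (adjusted p = 0.0342).

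That call at 24 h was lost without any 1 of the 3 cold acclimated arrays (1.43 to 1.55, adjusted p 0.0624 to 0.0866), in a fit of the 2 groups alone (adjusted p = 0.198) and without 24 h DEA replicate 2, where the difference fell to 0.56 (adjusted p = 0.135). Without replicate 2, CML37 at 24 h was instead called lower than in NA plants, by 1.29 (log2 change −1.29, adjusted p = 0.0291). With all arrays that difference was −0.36 (adjusted p = 0.919), and none of the 6 genes was called between 24 h DEA and NA plants (1, CML42, at an unadjusted p under 0.05), against 0.0447% of all probe sets in either direction.

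**Figure D3:**
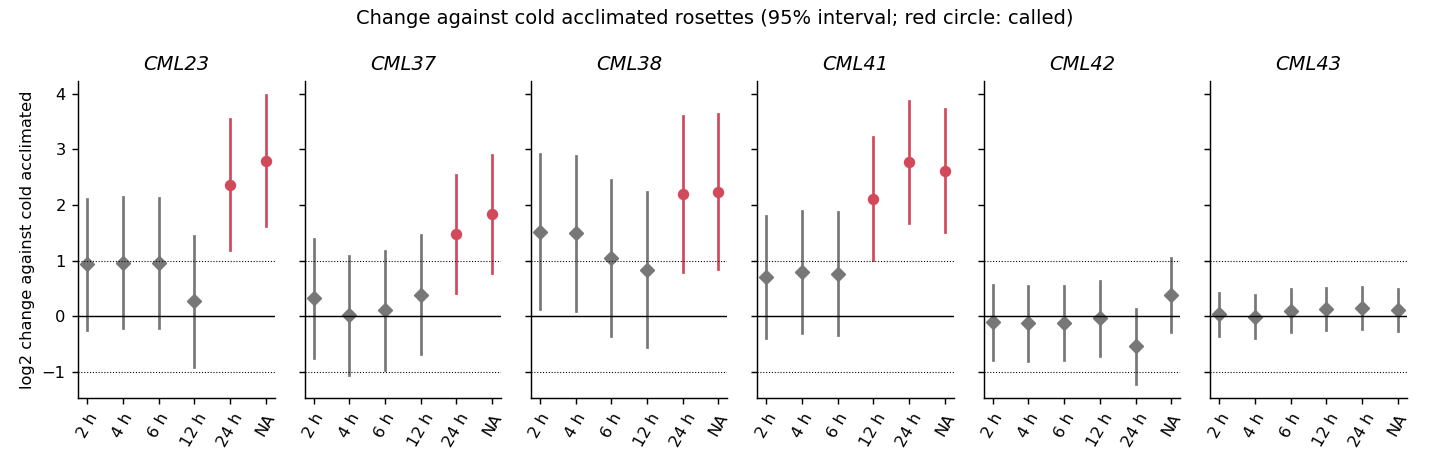
Log2 change against cold acclimated plants (y axis) of each calmodulin-like gene at 2 h to 24 h of deacclimation and in non-acclimated (NA) plants, with 95% intervals from the limma fit of 21 arrays. Red circles are called, grey diamonds are not, and dotted lines mark a 2-fold change. CML41 is called from 12 h, and CML23, CML37 and CML38 at 24 h.

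CML42 is known for a role in trichome branching and in the response to herbivory. Its values ran from 6.36 to 8.17 over all 21 arrays, and the groups overlapped with cold acclimated plants at every time. The differences from cold acclimated plants were between −0.54 at 24 h and 0.38 in NA plants (adjusted p 0.23 and 0.43). CML42 was lowest in mean at 24 h, where its arrays read 6.36, 7.15 and 6.69 against 7.19, 7.59 and 8.17 in NA plants with no overlap. That difference of −0.92, with a 95% interval of −1.59 to −0.25, was not called (limma, adjusted p = 0.387), and 5.86% of all probe sets had every 24 h array below every NA array. CML43, known from defence against bacteria, lay between 3.53 and 4.44 on all arrays and was the only 1 of the 6 whose mean was below the 25th percentile of the probe sets.

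In CML23, CML37 and CML38 cold acclimated plants had the lowest group mean, and NA plants and 24 h DEA the 2 highest, while the order of the other times differed between the genes. Without 24 h DEA replicate 2 the 24 h mean of CML38 was 5.69, level with its 6 h mean (5.70) and below those after 2 h (6.17) and 4 h (6.15), and those of CML23 and CML37, 7.09 and 6.04, still came next after NA plants. In CML41 cold acclimated plants were lowest too, and 24 h DEA, NA and 12 h DEA were the 3 highest in that order, which did not differ beyond their spread. In the test over all 7 groups at once, CML23, CML37 and CML41 were called (limma F test, adjusted p 0.00341, 0.0206 and 0.00118), beside 18.5% of all probe sets. CML38 (adjusted p = 0.086), CML42 (0.362) and CML43 (0.963) were not. CML37 lost this call without NA replicate 1 (limma, adjusted p = 0.0508) or NA replicate 3 (0.0686), and CML38 gained it without 24 h DEA replicate 1 (0.011) or replicate 2 (0.00216). Every array was higher than every cold acclimated array for 4 of the 6 genes at 24 h and in NA plants, where 20.5% and 20.9% of all probe sets met the same condition. At 4, 6 and 12 h it was 2, 2 and 3 genes, with 22.2%, 24.3% and 24.9% of all probe sets.

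The array 24 h DEA replicate 2 read highest of its group for 5 of the 6 genes, all but CML43, and highest of all 21 arrays for CML37 and CML38. NA replicate 3 and 12 h DEA replicate 3 were also highest of their groups for 5 of the 6 genes, so that count does not set the array apart. It lay above the higher of the other 24 h arrays by 3.04 for CML38 and 2.57 for CML37 on the log2 scale, rank 12 and rank 32 among 16722 single-gene probe sets. For CML23 the distance was 0.89, for CML42 0.46 and for CML41 0.19. Among the 40 single-gene probe sets highest on this array over the other 24 h arrays, 37 had an NA mean more than 2-fold above the cold acclimated mean. By the stricter condition of a call, 4.26% of all probe sets were higher in NA plants. The 40 included XTH18, a cell wall xyloglucan enzyme, at 5.24, 10.39 and 5.89 on the 24 h arrays, and EXLA1, an expansin-like gene, at 8.37, 12.30 and 7.98. XTH33, also among the 40, went the other way, with a mean of 8.60 in NA plants and 9.10 in cold acclimated plants. What sets this array apart was not tested. Without it 2 of the 6 genes, CML23 and CML41, were called higher at 24 h, beside 4.01% of all probe sets.

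**Figure D4:**
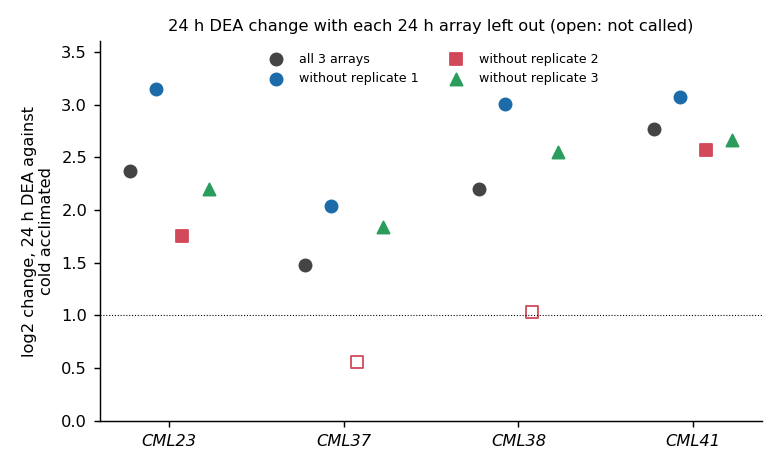
Log2 change of 24 h DEA against cold acclimated plants (y axis) for the 4 calmodulin-like genes called at 24 h, with all arrays and with each 24 h array left out. Filled points are called by limma and open points are not, and the dotted line marks a 2-fold change. Without replicate 2 CML37 falls to 0.56 and CML38 to 1.03, and both are open.

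A further CML gene on the array, AT1G76640, which the RefSeq table lists under its locus tag with the synonym CML39, is the direct neighbour of CML38. It rose by no more than 0.57 over cold acclimated plants at any time, and no difference was called (limma, adjusted p 0.145 to 0.539). Cross-hybridisation among the related CML37, CML38 and CML39 transcripts was not tested. Other sensor and kinase genes were found only through the study's own list of called transcripts, which was drawn up from these arrays. Their levels are therefore a description without a test. In the 1996 entries of that list in hand, which is only a part of it, these genes were 5 in number. CML12, known as the touch gene TCH3, averaged 10.87 in NA plants, 9.71 in cold acclimated plants, 10.45 at 2 h and 10.57 at 24 h. CPK29, a calcium-dependent kinase, averaged 8.08 in cold acclimated plants, 9.47 at 2 h and 9.22 in NA plants. CIPK17 averaged 6.71 in cold acclimated plants, 5.89 at 4 h, 7.77 at 24 h and 7.73 in NA plants. CIPK18 had its highest mean at 12 h, 7.09, against 6.01 in cold acclimated plants. The kinase gene AT1G35670, which the RefSeq table names CDPK2, had its lowest at 12 h, 9.24 against 10.54.

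Upstream of the sensors, 10 calcium channel genes were measured, all glutamate receptor-like (GLR) genes. At any time no more than 1 was called in a direction, and their median change against cold acclimated plants lay between −0.09 and 0.24. In a single comparison and direction, 1.6% to 4.76% of all probe sets were called. GLR2.8, which belongs to a tandem cluster known for calcium entry in response to microbial patterns, was higher by 1.34 at 24 h (limma, adjusted p = 0.0317) and by 1.48 in NA plants (adjusted p = 0.021). The 24 h arrays of GLR2.8 ran from 6.80 to 8.04 with a mean of 7.23, and whether its 24 h call rests on a single array was not tested. Its neighbour in that cluster, GLR2.7, was lower by 1.38 at 6 h (log2 change −1.38, adjusted p = 0.000105) and by 1.01 at 12 h (−1.01, adjusted p = 0.00126). GLR1.4 was higher at 2 h by 1.01 (adjusted p = 0.00469), and GLR3.5 was lower in NA plants (−1.13, adjusted p = 0.000538). The only exchanger gene measured, AT1G53210, known by the synonym NCL, was within 0.26 of cold acclimated plants throughout.

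Downstream, 17 calmodulin-binding genes were measured, all of the IQD family of scaffold proteins, and 2 of them were called, both higher. IQD19 was higher than in cold acclimated plants by 1.26 at 4 h (limma, adjusted p = 0.00044), 1.39 at 6 h (adjusted p = 0.000129) and 1.31 in NA plants (adjusted p = 0.000237). IQD18 was higher by 1.62 at 6 h (limma, adjusted p = 0.000846). Of all probe sets, 3.22% were called higher at 4 h, 4.17% at 6 h and 4.26% in NA plants. At 24 h none of the 17 was called by limma, where 4.15% of all probe sets were called higher and 4.37% lower, and 5 had an adjusted p under 0.05 with changes below 2-fold (−0.71 for IQD16 to 0.74 for IQD19). Their median change at 24 h was −0.02. BIK1, a receptor-like cytoplasmic kinase that CPK28 is known to phosphorylate, had changes below 2-fold of −0.54 at 24 h (adjusted p = 0.0482) and −0.64 in NA plants (adjusted p = 0.0217).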

How the data were processed

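The authors deposited log2 values per probe set of an Affymetrix Arabidopsis Gene 1.0 ST array, made with RMA (background correction, quantile normalization, summary) in RobiNA (version not given in the sources used here). Of 38408 probe sets, 7079 that head the table and have no gene assigned were set apart, and 31329 were analysed as deposited. The platform table gives 16722 probe sets 1 gene and 759 several. With 3 arrays per group the number of arrays limits the precision. Groups were compared with limma 3.58.1 (lmFit, eBayes) in R 4.3.3, in 1 fit of 21 arrays with 14 residual and 2.69 prior degrees of freedom, and p-values were adjusted by Benjamini-Hochberg over all analysed probe sets within a comparison. The fit was tested on simulated data. Genes named are the members, the channel and calmodulin-binding genes called, and examples from the other lists. Not every called gene of those other lists is named. XTH18, XTH33, EXLA1 and IQD16 were chosen after their values were seen. Members and lists were chosen with earlier results of these data known. Alternatives were other scaling, filters, fits and arrays left out. Protein and promoter sequences were not analysed here.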

Additional observations from a re-analysis of the deposited data

How the results depend on the processing

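The counts of CML genes called were unchanged by centring on the median, quantile normalization, the whole table, single-gene probe sets only, a prior variance with a trend, and no fold threshold. Each gene has 1 probe set, so another choice of probe set could not be tested. Leaving out probe sets below the 25th percentile, which removed CML43, changed none either. Replicate numbers are shared between groups, but the same-number correlations ran from −0.0813 to 0.353, with 22 of 33 over 0.1. As not every pair was over 0.1 and the labels do not say what a number marks, the samples were not treated as paired. With the replicate number as a block the counts stayed at 4 at 24 h, 4 in NA plants, 1 at 12 h and 0 at 2, 4 and 6 h. The paper speaks of 3 independent experiments but does not say that a replicate number marks one. In the data, 19 of 21 arrays lay closest to an array of their own number, so arrays that share a number did resemble each other. Array weights gave 1 call at 4 h instead of 0, and 4 in the test over all 7 groups instead of 3. Fits of only the groups compared gave 1 call each at 2, 4 and 6 h instead of 0, 2 at 24 h instead of 4, and 0 from 12 h to 24 h instead of 1. With 24 h DEA replicate 2 and 2 h DEA replicate 1 both left out, an alternative chosen after seeing the data, there was 1 call each at 2, 4 and 6 h, 2 at 24 h, 1 between 24 h and NA plants, 0 from 12 h to 24 h and 4 over all groups. Leaving out each array in turn, the counts ran from 0 to 1 at 2, 4 and 6 h, from 2 to 4 at 24 h and in NA plants, from 0 to 1 between 24 h and NA plants, from 0 to 2 from 12 h to 24 h, and from 2 to 4 in the test over all groups. No direction reversed among the results named. The arrays carry no detection call, so for CML43, AT1G76640 and the lowest GLR genes a low value has no stated bound.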
